A study of Mus musculus with 4 samples.

Results

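Homeobox, Sox, Fox, Klf, Pax and T-box genes encode DNA-binding proteins that switch developmental programmes on and off. This report follows 13 of them, of 25030 genes on the array, in mouse embryonic stem (ES) cells treated with inhibitors of 3 signalling enzymes. The 13 were picked by a rule on gene symbols, set with earlier results of these data known. The rule took every gene whose name begins with the stem of such a family. The stems were Hox, Fox, Sox, Pax, Gata, Lhx, Nkx, Dlx, Tbx, Klf, Irx, Msx, Pou and that of the sine oculis homeobox family. It was applied to the 5619 array genes to which the study's supplementary tables, held only in part, give a name. The 13 are Foxh1, Foxk2 and Foxm1, Sox13 and Sox17, Pou2f1, Pou3f3 and Pou5f2, Lhx4 and Lhx9, Pax3, Klf7 and Tbx19. No Hox, Gata, Nkx, Dlx, Irx, Msx or sine oculis gene was named in those tables, and 9 of the 13 come from a table ordered by genome position and lie on 1 chromosome, so the 13 are not an even draw from their families.

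Fox proteins bind DNA through a forkhead domain and Sox proteins through a high-mobility-group box. POU, LIM and paired factors bind it through a homeodomain, which in POU and paired factors is often joined to a second DNA-binding domain. In ES cells the best known of these families are the pluripotency factors Oct4 and Sox2, whose relatives are switched on as cells leave pluripotency for endoderm, neural tissue or muscle. FGF receptors and the kinase MEK act in 1 cascade that drives ES cells towards differentiation, while blocking GSK-3 stabilises beta-catenin and favours self-renewal.

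The cells were the line B6R(5), from C57BL/6 mice, grown on gelatin without feeder cells. Compound was added 24 h after plating and RNA was taken 48 h later, with 0.2% DMSO in every culture. The 4 groups were DMSO alone, the FGF receptor inhibitor PD173074 at a stated 100 µM, the MEK inhibitor PD98059 at 25 µM and the GSK-3 inhibitor BIO at 2 µM. A supplementary list prints the same figures in mM, so the unit of the doses rests on the methods text alone. Each group was 1 culture on 1 array, so no value has a replicate, no test of a difference was possible, and how precise the values are is limited by the number of arrays. A single line and a single dose of each compound stand for each treatment.

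On each array ES cell RNA carried the dye Cy3 and a common reference RNA, pooled from mouse cell lines, carried Cy5. For the study's tissue arrays the methods give the reference as Universal Mouse Reference RNA mixed with RNA of MC1 cells. The ES cell RNA is said to have been processed as described. A level is thus relative to that mixture, whose shares are not stated, and transcripts of MC1 cells count on its side. Levels are given as the log2 ratio of ES cell RNA to reference after normalization, and a change with an inhibitor is the ratio on its array minus the ratio on the DMSO array. The dyes were not swapped, so a ratio to the reference may hold a dye effect, which cancels between arrays as far as it is the same on each. A gene was counted as changed at 2-fold or more with its Cy3 signal well above background on both arrays. As a yardstick, the robust SD of the changes of all genes of similar Cy3 brightness is given, which holds true changes as well as measurement error. It was taken from the main processing, and values from other ways of processing are set against it too. Median centring moved the median change of all genes with the MEK inhibitor from -0.01 to 0.10, so a member's place against the yardstick may share that shift. In whole cultures, fewer cells expressing a gene and less RNA per cell cannot be told apart.

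The labelled cell type was checked first, with 4 log2 ratios per gene in the order DMSO, FGF receptor, MEK and GSK inhibitor, the order of all sets of 4 values from here on. The ES cell factor Gbx2 had 4.01, 3.03, 3.79 and 3.79. Tcfcp2l1 had 2.97, 3.39, 3.37 and 3.38. Prdm14 had 2.20, 2.80, 2.29 and 2.04. These 3 were far above the reference on every array. None changed 2-fold in the main processing, beside 1.39%, 0.0832% and 1.43% of all genes, which for 3 genes sets nothing apart. The change of Gbx2 with the FGF receptor inhibitor, -0.98, was -2.34 from the Cy3 channel alone and -0.19 with the scanner software's processed signals. On that array the mean Cy5 signal of Gbx2 was 101, against 236 with DMSO, and its mean Cy3 signal 530, against 2342. The change of Tcfcp2l1 with the GSK inhibitor, 0.41, passed 2-fold from Cy3 alone. Nr5a2, at 1.92, 2.52, 2.11 and 2.67, was also above the reference, whose signal was near background. Of the mesenchymal genes, Col3a1 and Twist2 had log2 ratios of -7.19 and -3.27 in DMSO, while Cy3 of Col5a2 and Prrx1 was not well above background there and lay at least 6.90-fold and 6.34-fold below the reference. The muscle markers were mixed. Myl1 was not well above background on any array, Tnnt2 and Myog had log2 ratios of -2.72 and -1.47 in DMSO, and Des, at 0.23, was near the reference and well above background on every array.

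Of the 13 developmental factors, 10 had Cy3 signal well above background on all 4 arrays, beside 64.8% of all genes. Lhx9 was not well above background on any array, beside 26.3% of all genes. Lhx4 passed on the 3 inhibitor arrays and Pax3 on the GSK inhibitor array alone. None of the 10 genes measured on all 4 arrays changed 2-fold with any inhibitor in the main processing, beside 1.39% of all genes with the FGF receptor inhibitor, 0.0832% with the MEK inhibitor and 1.43% with the GSK inhibitor. A count of 0 of 10 is near those shares and does not set these genes apart. With the scanner software's processed signals, as in the deposited table, 1 gene, Pou3f3, passed with each inhibitor. Of all genes, 724 of 16794, 260 of 16834 and 766 of 16465 passed with processed signals. With a normexp offset of 16 Pou3f3 passed with the GSK inhibitor, beside 330 of 16465 genes.

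Sox17, which directs the formation of endoderm and later of blood vessels, had log2 ratios of 2.10 in DMSO, 1.93 with the FGF receptor inhibitor, 2.21 with the MEK inhibitor and 1.73 with the GSK inhibitor. It was thus above the reference pool on every array, with the lowest value under GSK inhibition. The distance from the reference, a median log2 ratio of 2.02, was not settled, since it was 2.78 with a normexp offset of 16 and 4.32 with processed signals. Its change was -0.17, 0.11 and -0.37 in that order, against robust SDs of 0.25, 0.19 and 0.30. The value with the GSK inhibitor, a 1.29-fold lower level, lay just past its yardstick but, at -0.28, within it from Cy3 alone, and the sign with the MEK inhibitor turned to -0.19 with processed signals. These also gave -0.57 with the FGF receptor inhibitor and -0.65 with the GSK inhibitor. The mean Cy3 signal of the Sox17 spot was between 168 and 229.

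The endoderm markers Apoa2 and Cxcr4 did not share the low GSK inhibitor value of Sox17. The apolipoprotein gene Apoa2 had log2 ratios of 1.60, 1.15, 1.61 and 1.74. The chemokine receptor gene Cxcr4 had -1.74, -1.63, -1.81 and -1.57. Both were highest with the GSK inhibitor, by 0.14 and 0.17 over DMSO, within the robust SDs of 0.28 and 0.22. With the FGF receptor inhibitor they went apart, at -0.45 for Apoa2 and 0.11 for Cxcr4. The hedgehog ligand gene Ihh, at 0.22, 0.20, 0.15 and 0.27, had its reference well above background on the GSK inhibitor array only. Its change with that inhibitor was 0.05, but 0.47 from Cy3 alone and -2.56 with processed signals, so Ihh has no settled direction. None of the 4 endoderm markers changed 2-fold with any inhibitor in the main processing, beside 1.39%, 0.0832% and 1.43% of all genes, which for 4 genes sets nothing apart, while processed signals put Ihh past it with the MEK and GSK inhibitors.

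Sox13, a SoxD protein known for restraining Wnt signalling through TCF factors and for its part in lineage choice of T cells, was the member farthest above the reference in the main processing; with processed signals Sox17 was. On the 4 arrays it had log2 ratios of 2.88, 3.04, 2.93 and 3.33. All 4 were high, at a median of 7.91-fold over the reference, and the GSK inhibitor array was the highest. The change with that inhibitor was 0.46, a 1.37-fold higher level, against a robust SD of 0.28, and it was above 0 in each of 8 ways of processing the signals, from 0.39 to 0.71. Of the 8, Aquantile repeats the main values and the deposited table very nearly those of the processed signals, so they are not 8 separate checks. With the FGF receptor and MEK inhibitors the change was 0.16 and 0.06, within the robust SDs of 0.22 and 0.15. Median centring put both past these SDs of the main processing, at 0.23 and 0.24, but it raised the medians of all genes too. Sox13 was the only one of the 10 genes with a higher value under the GSK inhibitor than in DMSO, although the values of Foxh1 and Foxm1, both near 0, turned positive in some of the other ways of processing.

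**Figure D1:**
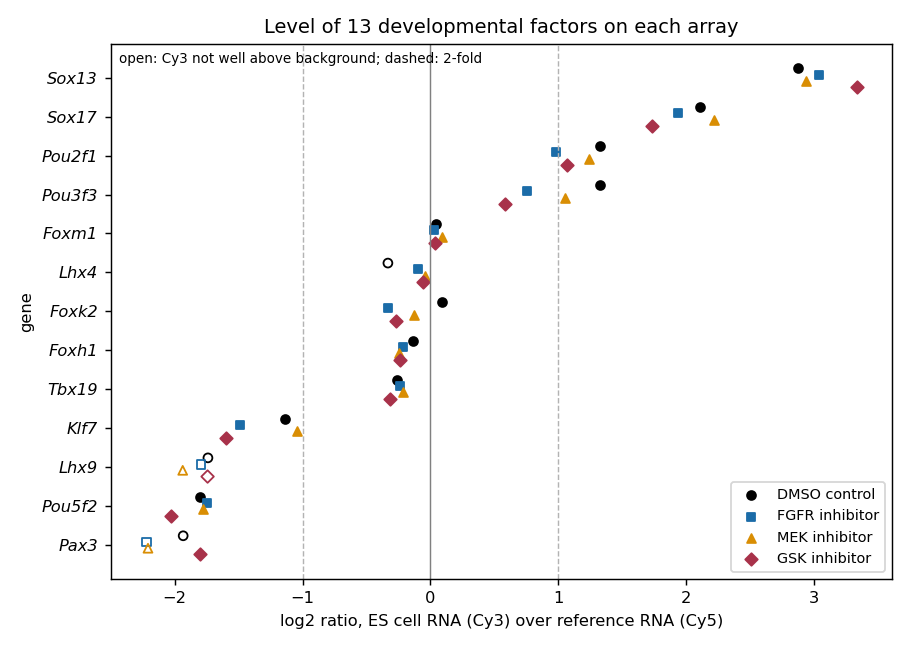
The plot gives the log2 ratio of ES cell RNA to reference RNA (horizontal axis) of each of the 13 genes (vertical axis) on the 4 arrays, 1 point per array, with open points where Cy3 was not well above background and dashed lines at 2-fold. Sox13 and Sox17 lie to the right of the 2-fold line on all 4 arrays, and Klf7, Lhx9, Pou5f2 and Pax3 to the left of it.

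Both Sox genes were at least 2-fold above the reference on all 4 arrays. In the main processing they were the only 2 of the 10 measured members to be so, beside 15.6% of all genes measured there. Processed signals added Pou2f1 and Pou3f3, and an offset of 16 added Pou3f3. At least 2-fold below the reference on all 4 arrays in the main processing were Klf7, Lhx9, Pax3 and Pou5f2. These are 4 of the 12 members with Cy5 well above background throughout, beside 18.3% of all genes with such Cy5 signal. For Lhx9 on all 4 arrays and for Pax3 on 3, the Cy3 side was not well above background.

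Pou2f1, also called Oct1, is a ubiquitous relative of the pluripotency factor Oct4 and binds the same octamer motif. Its log2 ratios were 1.33, 0.98, 1.24 and 1.07. In the main processing it was highest in DMSO and lowest with the FGF receptor inhibitor. The change there was -0.34, a 1.27-fold lower level, against a robust SD of 0.22. With the MEK and GSK inhibitors the change was -0.08 and -0.26, against robust SDs of 0.16 and 0.27. The sign with the MEK inhibitor turned under median centring, at 0.09. From Cy3 alone the change with the GSK inhibitor was -0.41, lower than the -0.38 with the FGF receptor inhibitor. Under median centring the change with the GSK inhibitor was -0.15. A second, unnamed probe shares 48 of its 60 bases with the Pou2f1 probe and read 1.34, 0.99, 1.25 and 1.07, which is close to the Pou2f1 values on every array.

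Pairs of probes of this kind show how well a change repeats within the arrays. Among pairs that share a run of at least 40 bases, with all signals well above background, the absolute difference between the log2 changes of the pair had a median of 0.09 with the FGF receptor inhibitor (461 pairs), 0.09 with the MEK inhibitor (448 pairs) and 0.10 with the GSK inhibitor (439 pairs). The 90th percentile was 0.21, 0.23 and 0.25. These pairs read the same RNA on the same arrays, so their differences leave out the spread between cultures.

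Pou3f3, or Brn1, acts in the developing cortex and kidney and had the largest changes of the members with the FGF receptor and GSK inhibitors in the main processing. From Cy3 alone Sox13 and Klf7 were past it with the GSK inhibitor. The 4 log2 ratios were 1.33, 0.75, 1.05 and 0.58. DMSO was the highest array and the GSK inhibitor array the lowest, with the MEK inhibitor between. The change was -0.57 with the FGF receptor inhibitor, -0.27 with the MEK inhibitor and -0.75 with the GSK inhibitor, which is 1.49-fold, 1.21-fold and 1.68-fold lower. The robust SDs of genes as bright were 0.18, 0.18 and 0.20.

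The Pou3f3 value with the GSK inhibitor was the only 1 among the 10 members past 1.5-fold in the main processing, beside 6.54% of all genes with that inhibitor. Under median centring it fell short at -0.57, from Cy3 alone Sox13 and Klf7 also passed, at 0.71 and -0.65, and with processed signals Sox17 did. None passed 1.5-fold with the FGF receptor inhibitor or the MEK inhibitor in the main processing, beside 5.70% and 1.06% of all genes, although Pou3f3 with the FGF receptor inhibitor was past it at -0.82 with an offset of 16 and at -0.65 without background subtraction. Pou3f3 was also the member whose size of change moved most with the processing, and its spot was dim. Mean Cy3 signals were 107, 79.6, 103 and 75.5, and the reference signal stayed near background on each of the 4 arrays. With the scanner software's processed signals the changes were -1.35, -1.10 and -1.88, past 2-fold for each inhibitor. From the Cy3 channel alone they were -0.49, -0.27 and -0.59, so the direction was lower in each of the 8 ways of processing while the size was not settled. The level in ES cells was at least 2.51-fold, 1.69-fold, 2.08-fold and 1.49-fold above the reference on the 4 arrays, as bounds that a dye effect could move.

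The probes of Pou3f3 and Klf7 are shown because these 2 genes had the lowest changes among the members with the GSK inhibitor in the main processing and because each is written from a part that such families hold in common. The Pou3f3 probe matches the homeodomain and that of Klf7 the first of its zinc fingers. Capitals mark a longest run of bases shared with another probe of the array. Pou3f3 has 2 such runs of equal length, of which the first is marked.
Pou3f3: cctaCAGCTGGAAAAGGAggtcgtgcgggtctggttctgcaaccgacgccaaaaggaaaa
Klf7: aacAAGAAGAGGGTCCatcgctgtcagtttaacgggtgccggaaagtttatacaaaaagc
The marked run is 14 bases long in Pou3f3 and 13 in Klf7, 3 probes share a run of that length with Pou3f3 and 1 with Klf7, and no other probe shared as many as 20 bases with either. Binding of RNA from relatives of these genes was not tested.

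Pou5f2, known as Sprm1 and expressed in male germ cells, belongs to the same class as Oct4. The arrays gave log2 ratios of -1.80, -1.75, -1.78 and -2.03. All 4 lay below the reference, at a median of 3.46-fold, and the GSK inhibitor array was the lowest. The change with that inhibitor was -0.22, against a robust SD of 0.25, and was -0.55 with processed signals and -0.48 from Cy3 alone. With the FGF receptor and MEK inhibitors it was 0.06 and 0.03, the second 0.18 under median centring.

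Klf7, a zinc-finger factor needed for axon outgrowth in the nervous system, had log2 ratios of -1.13, -1.49, -1.04 and -1.60. The DMSO and MEK inhibitor arrays were the higher pair and the FGF receptor and GSK inhibitor arrays the lower pair. The change was -0.36 with the FGF receptor inhibitor and -0.47 with the GSK inhibitor, 1.28-fold and 1.38-fold lower, against robust SDs of 0.22 and 0.30. With the MEK inhibitor it was 0.09, within its robust SD of 0.17, but 0.28, past it, under median centring, which raised the median of all genes as well. All 8 ways of processing kept these signs, and with the GSK inhibitor they gave -0.65 to -0.38.

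Foxk2, a widely expressed forkhead protein known for repressing autophagy genes, had log2 ratios of 0.09, -0.33, -0.13 and -0.27. DMSO was the highest and the FGF receptor inhibitor the lowest. The change was -0.42, -0.22 and -0.36 with the FGF receptor, MEK and GSK inhibitor, against robust SDs of 0.22, 0.15 and 0.28. Foxk2 and Pou3f3 were the only members past this yardstick with all 3 inhibitors in the main processing. Foxk2 came within it with the MEK inhibitor under median centring, at -0.03, and from Cy3 alone, at -0.11, and with the GSK inhibitor under median centring, at -0.26, and from Cy3 alone, at -0.20. Both were lower, and the 3 changes of each share the DMSO array. What share of all genes lay past the yardstick with all 3 inhibitors was not counted, so this sets neither Foxk2 nor Pou3f3 apart.

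Foxh1 carries Nodal and activin signals to the genome as the partner of Smad proteins. Its log2 ratios were -0.14, -0.21, -0.25 and -0.23. DMSO was the highest by a small margin, and changes of -0.08, -0.11 and -0.10 were within the robust SDs of 0.26, 0.16 and 0.28. The range of Foxh1 over the 4 arrays, 0.11, was smaller than that of all but 7.58% of the genes measured on all 4.

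Among 7 genes of the pathway upstream of Foxh1, each measured on all 4 arrays, 1 changed 2-fold with the FGF receptor inhibitor, none with the MEK inhibitor and 1 with the GSK inhibitor, beside the 1.39%, 0.0832% and 1.43% of all genes. The coreceptor gene Cfc1 had log2 ratios of 0.65, 2.69, 0.67 and 0.53, high with the FGF receptor inhibitor only. Its reference was well above background on that array alone, and the change of 2.04 was 1.82 from Cy3 alone but 0.88, under 2-fold, with processed signals, which also gave -1.40, past 2-fold, with the GSK inhibitor. Inhbb, which encodes a subunit of activin B, had 2.68, 1.82, 3.03 and 1.00, low with the GSK inhibitor and, at a change of -0.86, less so with the FGF receptor inhibitor. The list's median changes were 0.15, 0.10 and -0.12 beside -0.02, -0.01 and -0.00 for all genes. The remaining 5 genes encode an inhibin subunit and activin receptors, and none of them changed 2-fold. The receptor gene Acvr2b had 2.79, 2.76, 2.66 and 2.51. Acvr2a had 0.38, 0.57, 0.59 and 0.34. Both type II receptor genes were thus above the reference on every array. The type I receptor gene Acvr1b had -0.40, -0.24, -0.18 and -0.28. Acvr1 had -2.10, -1.89, -2.15 and -1.73. Inha, the inhibin subunit gene, had -1.74, -1.84, -1.65 and -1.93. These last 3 were below the reference on every array. Foxh1 itself was level on the arrays on which Cfc1 and Inhbb were not, although its sign turned with median centring for the MEK inhibitor and with Cy3 alone for the GSK inhibitor.

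Foxm1, which drives genes of the G2 phase and mitosis, had the smallest range of the members in the main processing. Log2 ratios of 0.04, 0.03, 0.09 and 0.04 were measured. All 4 were close to the reference in the main processing, with a range of 0.06, exceeded by all but 1.62% of genes. The median of the 4 Foxm1 ratios was 0.04 there, but -0.40 under median centring and 0.22 with processed signals. The largest of its changes in size was 0.05, with the MEK inhibitor, and median centring made that 0.23. From Cy3 alone its changes were 0.10, 0.12 and 0.07. The 8 mitotic genes known as its targets (Aurkb, Birc5, Ccna2, Cenpa, Kif20a, Nek2, Plk1 and Ube2c) were all measured on every array. None of them changed 2-fold with any inhibitor, which at shares of 1.39%, 0.0832% and 1.43% of all genes does not set 8 genes apart, and their changes ran from -0.17 to 0.23, from -0.20 to 0.22 and from -0.13 to 0.23.

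Tbx19, or Tpit, is the T-box factor of pituitary corticotrophs. Its log2 ratios were -0.26, -0.24, -0.22 and -0.32, nearly level, and its changes of 0.02, 0.04 and -0.06 were within the robust SDs of 0.21, 0.18 and 0.24. From Cy3 alone the first 2 were below 0, at -0.02 and -0.09.

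The LIM-homeodomain gene Lhx4, which acts in pituitary and motor neuron development, was at the edge of detection. Its log2 ratios were -0.33, -0.10, -0.04 and -0.06, and Cy3 in DMSO was not well above background. The fold over DMSO was therefore only a bound, at least 1.06-fold, 1.07-fold and 1.07-fold, taken between the Cy3 values of the arrays. Mean Cy3 signals of 52.3, 58.1, 62.3 and 60.4 show how small the step across the detection limit was.

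Lhx9, needed for the gonads and limbs, had log2 ratios of -1.74, -1.79, -1.94 and -1.74 with Cy3 not well above background on any array. No change with an inhibitor can be given. The reference was at least 3.34-fold, 3.47-fold, 3.83-fold and 3.34-fold above the ES cell RNA.

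Pax3, a paired-homeodomain factor of neural crest and muscle precursors, had log2 ratios of -1.93, -2.22, -2.21 and -1.80. Cy3 was well above background with the GSK inhibitor only, where the level was at least 1.05-fold that in DMSO. The reference was at least 3.82-fold, 4.66-fold and 4.62-fold above the ES cell RNA on the DMSO, FGF receptor inhibitor and MEK inhibitor arrays.

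**Figure D2:**
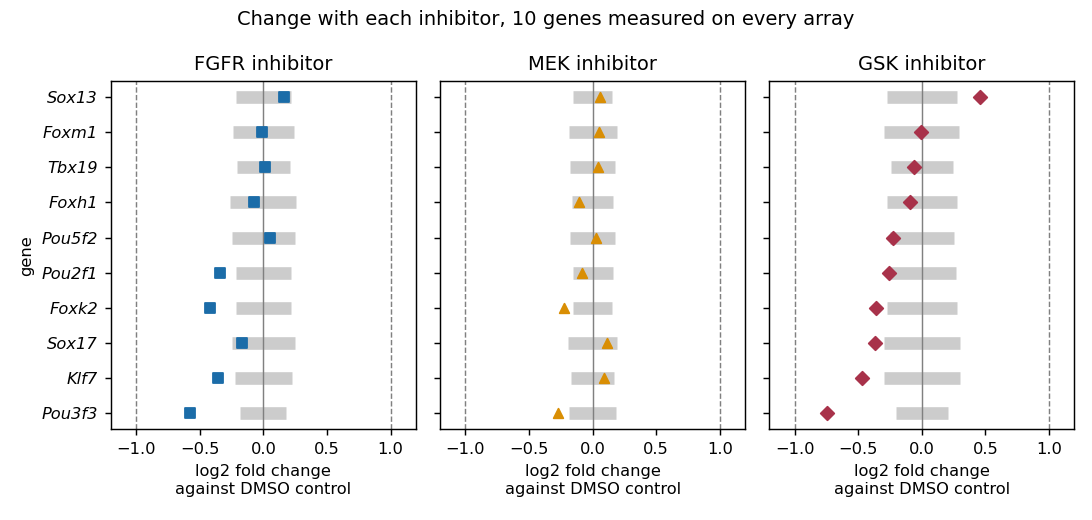
Each panel gives, for 1 inhibitor, the log2 fold change against the DMSO array (horizontal axis) of the 10 genes measured on every array (vertical axis), 1 point per gene from 1 pair of arrays. Grey bars span 1 robust SD of all genes of similar brightness to each side of 0 and dashed lines mark 2-fold; no point reaches them, and Pou3f3 lies farthest from 0 with each inhibitor.

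Over the 10 measured members the median change was -0.12 with the FGF receptor inhibitor, beside -0.02 for all genes, with 7 of 10 below 0 where 54.0% of all genes were. Under median centring it was -0.07, beside 0.01 for all genes. With the MEK inhibitor it was 0.04 beside -0.01, with 4 of 10 below 0 beside 52.8% of all genes, and the sign of this small median turned to -0.03 with processed signals and to -0.06 with Cy3 alone. With the GSK inhibitor it was -0.24 beside -0.00, with 9 of 10 below 0 beside 50.6%. Of these 9, Foxm1, Tbx19 and Foxh1 were nearest 0, at -0.01, -0.06 and -0.10, well within their robust SDs. In all 8 ways of processing, 6, 2 and 7 of the 10 members stayed below 0 with the FGF receptor, MEK and GSK inhibitor. The median size of the change, taken without sign, was 0.17, 0.09 and 0.31 for the members and 0.14, 0.11 and 0.16 for all genes. Changes of the members ran from -0.57 to 0.16, from -0.27 to 0.11 and from -0.75 to 0.46. The 3 comparisons share the DMSO array, so an error of that array would enter all 3 alike.

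Differences between inhibitor arrays do not use the DMSO array, and 11 members, Lhx4 included, could be measured in them. None reached 2-fold between the FGF receptor and MEK inhibitors, the GSK and FGF receptor inhibitors, or the GSK and MEK inhibitors, beside 0.605%, 1.34% and 0.992% of all genes. Klf7 was -0.56 in the GSK against the MEK inhibitor, the lowest of the members there in the main processing though not with processed signals, where Pou3f3 was at -0.78, and was -0.45 in the FGF receptor against the MEK inhibitor. Sox17 was -0.48 and Pou3f3 -0.48 in the GSK against the MEK inhibitor, and Sox13 was 0.40. Since the compounds and doses differ, these values stand side by side only.

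A wider list of 27 developmental factors from outside these name families was set beside the 13. Of them 18 were measured on all 4 arrays and 3, Ikzf2, St18 and Tcfap2d, on none. With each inhibitor 20 of them, not the same 20, could be set against DMSO, and 2 changed 2-fold with the FGF receptor inhibitor, 1 with the MEK inhibitor and 1 with the GSK inhibitor in the main processing, beside 1.39%, 0.0832% and 1.43% of all genes. The retinoid receptor gene Rxrg was lower with each, at log2 ratios of 3.34, 0.12, 2.08 and 1.21. Its reference was not well above background on the MEK inhibitor array, and the change of -1.26 there was -0.51, under 2-fold, with processed signals and -1.34 from Cy3 alone. Eya1, a transcriptional coactivator of ear and kidney development that works with sine oculis proteins, had -2.10, -1.08, -1.86 and -1.34, higher by 1.02 with the FGF receptor inhibitor. With the GSK inhibitor it passed 2-fold with processed signals and from Cy3 alone, at 1.13 and 1.03. The list's medians were 0.10, 0.12 and 0.03, where those of the 10 members measured on every array were -0.12, 0.04 and -0.24. Over all 13, without the filter on Cy3, they were -0.08, 0.03 and -0.10.

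Markers of neural cells changed 2-fold with the FGF receptor inhibitor in 1 of 4 genes, beside 1.39% of all genes. Dner, a Notch ligand of neurons, had log2 ratios of -0.05, 1.36, 0.34 and 0.26, highest with that inhibitor. Msi1 had -0.20, -0.33, -0.26 and -0.25. Cntn2, at -0.23, -0.18, -0.18 and -0.19, lacked Cy3 well above background with the GSK inhibitor, and Mtap2, at 0.37, 0.23, 0.41 and 0.44, had a reference signal near background throughout, and neither of them nor Msi1 changed 2-fold. Their part in the values of the developmental factors was not tested.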

How the data were processed

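The authors hybridised Cy3-labelled ES cell RNA and a Cy5-labelled reference to 4 two-channel Agilent arrays, all on 1 slide and scanned at 1 time, and read them with Feature Extraction 9.5.1.1. The deposited scanner files give each spot's intensity on a linear scale. The deposited value table gives log10 values for 25030 probes, 1 per gene; its column medians were 2.26, 2.25, 2.26 and 2.26, and setting it against the scanner's log ratios gave Cy3 over Cy5 scaled by the mean Cy5 signal (median absolute difference 3.83e-05). Mean signals and median local backgrounds were corrected by normexp (offset 50) and each array was normalized by loess in limma 3.58.1 (R 4.3.3), without control and outlier spots. Tables were made in Python 3.11.15 with pandas 2.3.3 and numpy 2.4.6. The calculation was tested on simulated data, with changes past 2-fold put into spots with Cy3 well above background. That test did not cover smaller changes, such as those of the members in the main processing, or spots near background. Robust SDs were taken in 20 groups by Cy3 signal. Bounds used Cy3 or Cy5 values after Aquantile normalization, the bright value over the higher of the dim value and the lowest signal well above background. All 13 symbols are in RefSeq (GRCm38). All members are named, and from the lists those changed 2-fold and the Foxh1 and endoderm genes. The symbol rule for the members and the lists were set with earlier results of these data known. Alternatives covered offset, background, normalization, filter and threshold.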

Additional observations from a re-analysis of the deposited data

How the results depend on the processing

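No paired analysis was possible because the groups are single arrays, and for the same reason leaving out a replicate and a slide block were not run. In the count of members changed 2-fold, processed signals and the deposited log10 table each gave 1 instead of 0 with the FGF receptor inhibitor, 1 with the MEK inhibitor and 1 with the GSK inhibitor. With the GSK inhibitor an offset of 16 and a 1.5-fold threshold each gave 1 too. The gene was Pou3f3 each time. The other settings (no background subtraction, median centring, Aquantile, Cy3 alone, no filter, both channels well above background, 4-fold) left the count at 0. Over all genes, processed signals raised the count from 234 to 724, from 14 to 260 and from 235 to 766. Median centring moved the median change of all genes with the MEK inhibitor from -0.01 to 0.10 and that of the members from 0.04 to 0.15, and with it 12 genes were higher and 4 lower with the MEK inhibitor, where loess gave 7 and 7, and 125 higher and 83 lower with the GSK inhibitor, where loess gave 113 and 122. Members at least 2-fold above the reference on all 4 arrays were 4 with processed signals, which added Pou2f1 and Pou3f3, and 3 with an offset of 16, which added Pou3f3, instead of 2. Members as far below it were 3 with processed signals instead of 4, without Klf7. Median centring lowered the median log2 ratio to the reference of every member. It moved Foxh1 from -0.22 to -0.62, Foxk2 from -0.20 to -0.54 and Tbx19 from -0.25 to -0.78. Pou2f1 moved from 1.16 to 0.77, so how near a member lies to the reference depends on the normalization. The causes were not tested. Across the 8 ways of computing a change, of which Aquantile repeats the main changes and the deposited table very nearly those of processed signals, 8 of 10 members kept 1 sign with the FGF receptor inhibitor, 6 with the MEK inhibitor and 8 with the GSK inhibitor. Signal over background limits Sox17, Pou3f3, Lhx4, Lhx9 and Pax3.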
